A study of Mus musculus with 33 samples.

Results

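Expression of 10 transcription factor genes of the primitive streak and of the first mesoderm, *T*, *Mixl1*, *Eomes*, *Mesp1*, *Mesp2*, *Tbx6*, *Gsc*, *Evx1*, *Lhx1* and *Msgn1*, was followed through embryoid body (EB) differentiation of mouse embryonic stem (ES) cells. They were picked by symbol, and all 10 were found among the 16336 genes of the expression table. The data are 33 RNA-seq libraries of 3 lines of strain 129/Ola at 4 time points. E14Tg2a is a wild-type ES cell line. ΔK9.1 and ΔK9.2 are clones derived from it by CRISPR, each 1 clone, which carry on both alleles a deletion of the interval between the *Nanog* enhancer and promoter that bears H3K9me3, a repressive histone mark. All lines were kept in medium with serum and LIF (day 0) and were then differentiated in serum without LIF for 4, 6 or 8 days. Per the study's methods the EBs floated until day 4 and were then replated on gelatin, so the day 6 and day 8 RNA comes from attached outgrowths. Each line had 3 replicates on days 0, 4 and 8, and replicates 2 and 3 only on day 6. The comparisons of the clones with E14Tg2a share its libraries.

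The primitive streak is where cells of the epiblast leave their epithelium at gastrulation and become mesoderm and definitive endoderm. NODAL and WNT3 signals switch on the T-box genes *T* (Brachyury) and *Eomes* and the homeobox gene *Mixl1* there, and *Mesp1*, *Tbx6* and *Msgn1* follow in cells that leave it. In EBs the same genes appear as a transient wave. Levels are given in TPM, a share of all transcripts that is corrected for transcript length, so that levels of different genes can be set side by side. In RNA from whole cultures, fewer cells of a type and less RNA per cell cannot be told apart.

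Promoter sequences were found in RefSeq (GRCm38.p6, 250 bases before to 50 after the start) for 9 of the 10 genes, all but *Mixl1*. They were searched because the 10 genes moved together in these libraries. Shown are the promoters that hold a motif of a factor that acts on streak or pluripotent cells and, as 1 example of a basal motif, that of *T*. The motifs searched on both strands were the T-box core GGTGTGA, the TCF/LEF core CTTTGAT, the FOXH1 core AATCCACA, the octamer ATGCAAAT, the CCAAT box CCAAT and the TATA box TATAAA, none of which contains another. The T-box core was found in 1 of the 9 promoters against 3.98% of 32851 mouse promoters of the same length, the TCF/LEF core in 2 against 3.73%, the FOXH1 core in 1 against 0.855%, and the octamer in 1 against 1.74%. CCAAT was found in 4 against 37.4% and TATAAA in 2 against 13.6%. The stretch before the *T* start (chr17:8434173-8434422, plus strand) holds a CCAAT box, that of *Evx1* (chr6:52313248-52313497, plus strand) an octamer on the opposite strand, and that of *Msgn1* (chr12:11208973-11209198, minus strand) a TCF/LEF core on the opposite strand. *Mesp1* holds a TCF/LEF core (chr7:79793605-79793631, minus strand) and, just after its RefSeq start, a T-box core on the opposite strand (in chr7:79793569-79793595, minus strand, a stretch that crosses the start). *Mesp2* holds a FOXH1 core (chr7:79810741-79810768, plus strand). Capitals mark the motif and all are written 5′ to 3′ on the strand of the gene.
T: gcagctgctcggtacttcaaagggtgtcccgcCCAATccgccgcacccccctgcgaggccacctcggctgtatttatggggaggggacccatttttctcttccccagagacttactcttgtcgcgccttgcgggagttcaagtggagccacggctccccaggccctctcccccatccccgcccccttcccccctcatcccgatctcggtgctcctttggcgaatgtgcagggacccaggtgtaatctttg
Evx1: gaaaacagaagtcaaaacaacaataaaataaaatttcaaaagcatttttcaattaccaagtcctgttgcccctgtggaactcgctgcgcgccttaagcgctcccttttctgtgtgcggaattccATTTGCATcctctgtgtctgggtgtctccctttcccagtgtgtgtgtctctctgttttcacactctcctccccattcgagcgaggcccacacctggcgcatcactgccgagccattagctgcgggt
Msgn1: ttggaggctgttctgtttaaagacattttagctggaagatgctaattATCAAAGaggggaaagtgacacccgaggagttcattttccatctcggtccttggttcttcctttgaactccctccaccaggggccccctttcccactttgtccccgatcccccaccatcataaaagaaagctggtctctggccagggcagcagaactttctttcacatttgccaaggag
Mesp1 (TCF/LEF core): ctcgagccggCTTTGATatgctgatga
Mesp1 (T-box core): ggggcccgctTCACACCtagggctcag
Mesp2 (FOXH1 core): gaggggtcagAATCCACAcctctgcaaa

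On GRCm38 (GENCODE M21) *Mesp1* (chr7:79792241-79793788, minus strand) and *Mesp2* (chr7:79810727-79813439, plus strand) are neighbours with 16938 bases between them. *T* lies at chr17:8434423-8442496 (plus), *Eomes* at chr9:118478212-118486132 (plus), *Mixl1* at chr1:180693043-180697034 (minus), *Tbx6* at chr7:126781483-126785560 (plus), *Gsc* at chr12:104471209-104473330 (minus), *Evx1* at chr6:52313498-52318378 (plus), *Lhx1* at chr11:84518284-84525535 (minus) and *Msgn1* at chr12:11208360-11208972 (minus). *Evx1os* (chr6:52308389-52314832) is antisense to *Evx1* and overlaps it, and *Gm33460* (chr9:118485559-118489099) overlaps *Eomes* in the same way. The libraries were stranded and counted as such by the study's methods.

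Some libraries stood apart. The summed level of the 10 genes was 619 and 648 TPM in the E14Tg2a day 6 libraries and 481 and 526 TPM in those of ΔK9.2, but 641 TPM in replicate 2 and 83.0 TPM in replicate 3 of ΔK9.1. All 10 genes were lower in that library than in each of the other day 6 libraries. On day 8, replicate 1, which has no day 6 library, held the highest sum in each line. It was 153.5 TPM against 19.3 and 33.8 TPM in E14Tg2a, 228.6 TPM against 114.0 and 82.4 TPM in ΔK9.1, and 595.9 TPM against 153.7 and 105.9 TPM in ΔK9.2. Many of the results that rest on these libraries, though not all, are given with and without them. The depth of each library is unknown, since TPM do not keep it and the study's methods give only 1 approximate read number for all. *Nanog* averaged 344 TPM on day 0 in E14Tg2a against 468 and 426 TPM in ΔK9.1 and ΔK9.2, and 26.7 against 98.9 and 104.8 TPM on day 8. The ES cell markers *Pou5f1* and *Sox2* were detected in every library, at no less than 91.0 and 19.0 TPM.

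**Figure D1:**
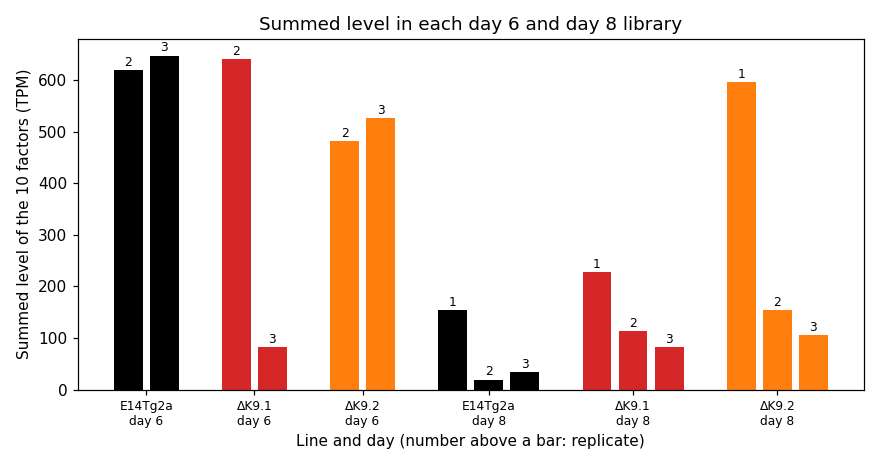
Summed TPM of the 10 genes in each day 6 and day 8 library, grouped by line, with the replicate number above each bar. The ΔK9.1 day 6 replicate 3 library stands at 83.0 TPM, and replicate 1 is the highest bar of each line on day 8.

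In E14Tg2a the 10 genes were at or below 2.92 TPM on day 0, and all 10 had their highest mean on day 6. Differences between groups were tested with limma on log2(TPM + 1) over all 33 libraries, with Benjamini-Hochberg adjustment over the 16336 genes, and a gene was called where its adjusted p was below 0.05 and it differed by more than 1 on the log2 scale. On this scale the change of low genes is understated. The lines were differentiated in parallel, and where a call on one of the 10 genes changed once the replicate number was added to the fit as a block, the blocked value stands beside it. From day 4 to day 6 all 10 were called as higher (5.19% of all genes were called as higher), by 2.34 for *Mesp2* (SE 0.31, adjusted p = 1.17e-05) to 6.70 for *T* (SE 0.90, adjusted p = 1.29e-05). From day 0 to day 6 all 10 were likewise called as higher (8.95% of all genes). Of all genes, 16.1% had their highest E14Tg2a mean on day 6.

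*T*, the founding T-box factor and the standard marker of the streak, was listed at 1.13, 0.717 and 0.0981 TPM on day 0 and at 0.543, 3.82 and 0.259 TPM on day 4. It reached 211 and 224 TPM on day 6 and stood at 44.9, 1.46 and 4.09 TPM on day 8. *T* was the highest of the 10 on day 6 in each line. The order in E14Tg2a went on with *Eomes* (96.5 and 112 TPM), which is needed for definitive endoderm and cardiac mesoderm, and *Mixl1* (78.8 and 69.6 TPM), which acts in endoderm and mesoderm patterning. *Lhx1* (44.7 and 63.0 TPM), *Mesp1* (52.9 and 51.0 TPM) and *Evx1* (56.3 and 46.5 TPM) came next and overlapped each other. Below them stood *Msgn1* (37.6 and 32.97 TPM), *Gsc* (26.5 and 31.1 TPM), *Tbx6* (8.62 and 11.5 TPM) and *Mesp2* (6.70 and 5.98 TPM), with no overlap between neighbours. In ΔK9.2 *Msgn1* and *Evx1*, which overlapped, came before *Lhx1* and *Mesp1*, which overlapped too. In ΔK9.1 every neighbouring pair overlapped.

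*Eomes* and *Lhx1* were already called as higher in E14Tg2a on day 4 than on day 0 (2 of 10, against 3.67% of all genes). *Eomes* went from 2.92, 1.91 and 1.32 TPM to 12.3, 9.17 and 6.67 TPM, a log2 difference of 1.77 (SE 0.54, adjusted p = 0.0176). *Lhx1*, a LIM homeobox gene of the anterior streak and visceral endoderm, went from at most 0.0331 TPM to 5.61, 2.00 and 2.03 TPM, a difference of 1.95 (SE 0.48, adjusted p = 0.0036). Only 1 of the calls was made without E14Tg2a day 4 replicate 1, without day 0 replicate 3, or in the E14Tg2a libraries fitted alone. The day 4 E14Tg2a libraries also held 166 to 1239 TPM of the 14 primitive endoderm markers in sum, against 38.6 to 357 TPM on day 0, and *Lhx1* was highest in the library where that sum was 1239 TPM. *Lhx1* and *Eomes* are also expressed in visceral endoderm. The part of these cells in the day 4 levels was not tested.

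From day 6 to day 8 in E14Tg2a, 9 of the 10 genes fell, against 2.73% of all genes. The exception was *Evx1*, at 56.3 and 46.5 TPM on day 6 and 30.7, 10.1 and 12.7 TPM on day 8 (log2 difference -1.62, SE 0.63, adjusted p = 0.0597), which was called with the replicate block (-1.78, adjusted p = 0.0190). Without E14Tg2a replicate 1 of day 8 all 10 fell. The steepest differences were those of *T* (-4.72, SE 0.90, adjusted p = 0.00055) and *Msgn1* (-4.23, SE 0.85, adjusted p = 0.00086), a basic helix-loop-helix factor of presomitic mesoderm, which ended at 4.59, 0 and 0.293 TPM. The mean level left on day 8 ran from 4.62% of the day 6 mean for *Msgn1* to 34.7% for *Evx1*, with a median of 9.34% over the 10 genes. For 10032 genes with at least 5 TPM on day 6 the median was 104%. The day 8 means hold replicate 1, which was the highest and has no day 6 library. Within replicate 2 the level left ran from 0% (*Msgn1*) to 19.1% (*Tbx6*), and within replicate 3 from 0.889% (*Msgn1*) to 27.4% (*Evx1*). Compared with day 0, 6 of the 10 were still called as higher on day 8 (15.9% of all genes), and *Eomes* in addition with the replicate block (1.15, adjusted p = 0.0397). This count was 2 without the E14Tg2a replicate 1 library of day 8, 3 without day 0 replicate 3, and 3 without the day 8 replicate 1 libraries of all lines.

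**Figure D2:**
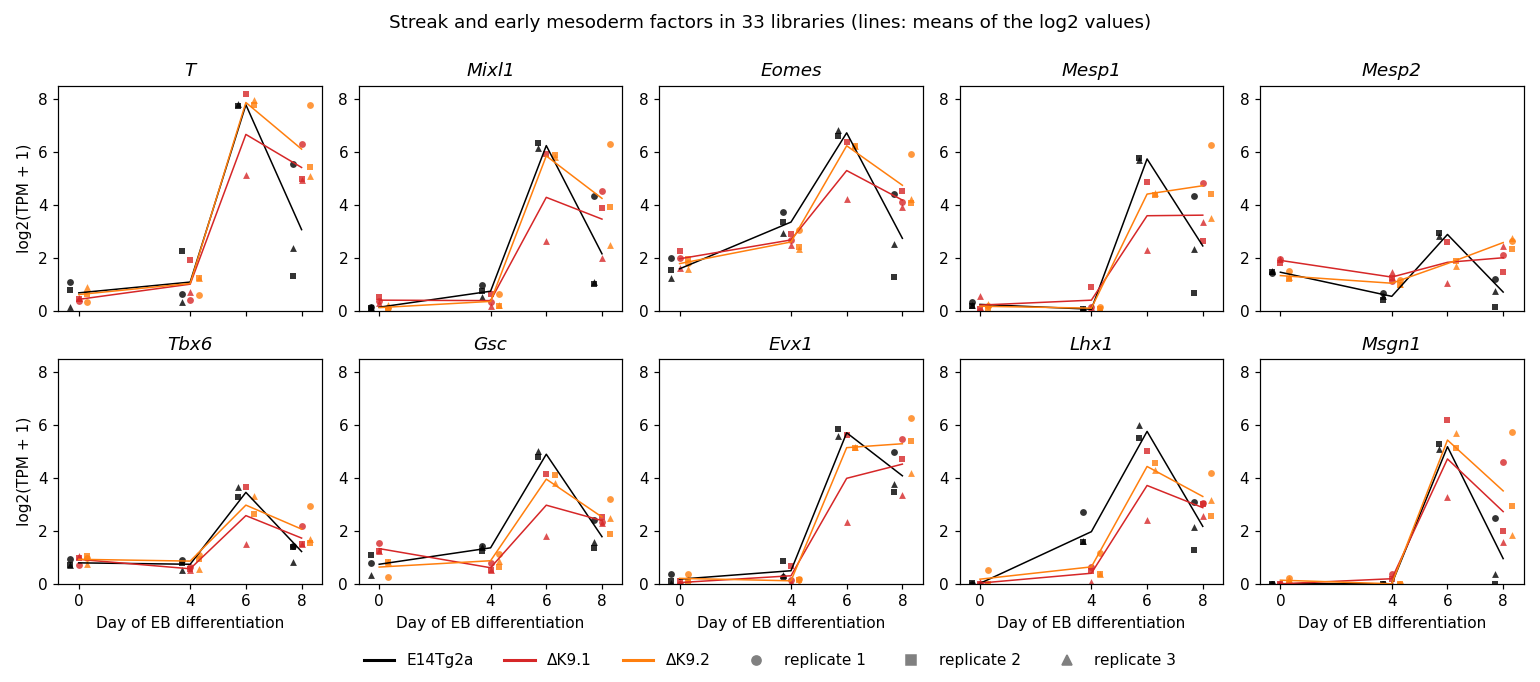
Level of each of the 10 genes, as log2(TPM + 1), by day of EB differentiation. Points are libraries (colour for the line, shape for the replicate) and lines join the means of the log2 values. The E14Tg2a mean is highest on day 6 for all 10 genes and lies below that of both clones on day 8, and the ΔK9.1 day 6 replicate 3 library lies low in every panel.

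In the clones, 9 of the 10 genes rose from day 4 to day 6 in ΔK9.1 (3.42% of all genes called as higher) and 9 in ΔK9.2 (4.89%), and the exception was *Mesp2* in both. Against day 0 the count on day 6 was 9 for ΔK9.1 (4.95%) and 9 for ΔK9.2 (7%), again without *Mesp2*, and on day 8 it was 8 for ΔK9.1 (10.9%) and 10 for ΔK9.2 (11%). From day 6 to day 8, none of the 10 was called as lower in ΔK9.1 (1.7% of all genes) and 1 in ΔK9.2 (1.53%), *Gsc* (-1.43, SE 0.42, adjusted p = 0.0253). With the replicate block it was 1 in ΔK9.1 (*Msgn1*, -2.32, adjusted p = 0.0316) and 3 in ΔK9.2, where *Eomes* (-1.72, adjusted p = 0.0284) and *Msgn1* (-2.25, adjusted p = 0.0401) joined *Gsc*. Of all genes 1.96% in ΔK9.1 and 1.80% in ΔK9.2 were called as lower with the block. At an unadjusted p under 0.05 without the block, limma gave 2 genes as lower in ΔK9.1, against 9.15% of all genes, and 5 in ΔK9.2, against 10.6%.

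The libraries that stood apart moved these counts. The share of all genes called is not given for the fits below. A general gain in calls therefore cannot be told apart from one of these genes. Each line has 2 day 6 libraries, so leaving out 1 leaves a single library of that line and day, which limma takes to vary like the other groups. In ΔK9.2 7 genes fell from day 6 to day 8 without day 8 replicate 1, all but *Mesp1*, *Mesp2* and *Evx1*, and 0 without any other 1 of its libraries of these days. In ΔK9.1 9 genes fell, all but *Mesp2*, once the day 8 replicate 1 libraries and its day 6 replicate 3 were left out. With only day 6 replicate 3 left out it was 3 (*Tbx6*, *Gsc* and *Lhx1*), with only day 8 replicate 1 left out 1 (*Msgn1*), and without day 6 replicate 2 *Evx1* was called as higher. Without ΔK9.1 day 6 replicate 2, 0 of the 10 were called from day 4 to day 6 in that clone and 5 from day 0 to day 6.

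The day 8 mean was 23.8% to 102.6% of the day 6 mean in ΔK9.1 (median 37.7%) and 35.4% to 204.8% in ΔK9.2 (median 49.9%). These means hold day 8 replicate 1, which has no day 6 library. Within replicate 2 the percentage ran from 4.15% (*Msgn1*) to 51.5% (*Evx1*) in ΔK9.1 and from 16.6% (*Gsc*) to 152% (*Mesp2*) in ΔK9.2. Within replicate 3 it ran from 23.3% (*Msgn1*) to 417% (*Mesp2*) in ΔK9.1 and from 5.09% (*Msgn1*) to 255% (*Mesp2*) in ΔK9.2. The highest mean fell on day 6 for 9 genes in ΔK9.1 and for 7 in ΔK9.2, against 13.0% and 16.9% of all genes. The exceptions were *Mesp2* in both clones and *Mesp1* and *Evx1* in ΔK9.2, whose means were highest on day 8. *Mesp1* and *Evx1* in ΔK9.2 peaked on day 6 without day 8 replicate 1. *Mesp2* in ΔK9.1 peaked on day 6 without day 6 replicate 3, without day 8 replicate 3 or with the libraries rescaled, and its 2 means differed little (3.06 and 3.14 TPM). *Mesp1* and *Evx1* in ΔK9.1, whose day 8 means were 86.4% and 99.1% of the day 6 means, peaked on day 8 without day 8 replicate 2 or without day 8 replicate 3. In ΔK9.1, 9 of the 10 genes, all but *Eomes*, had their highest mean on day 8 without day 6 replicate 2.

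**Figure D3:**
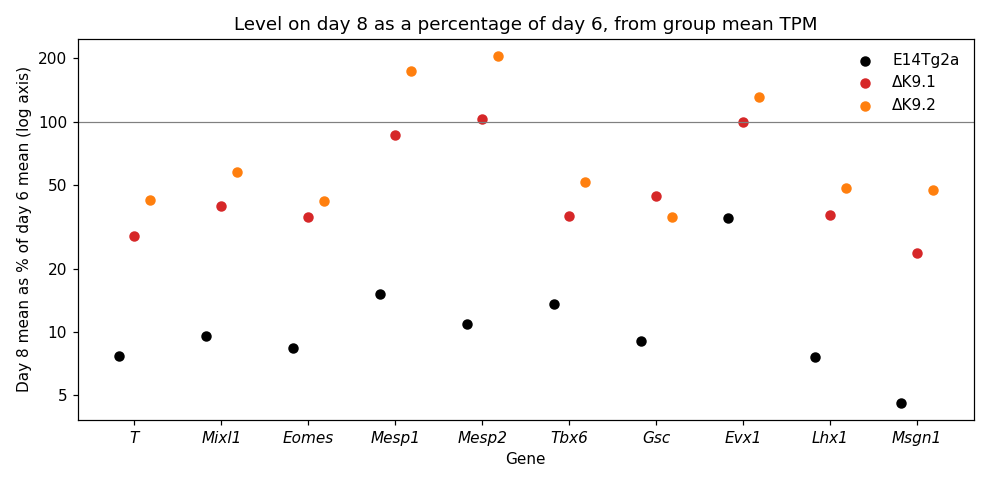
Mean TPM on day 8 as a percentage of the mean on day 6 for each gene and line, on a log axis, with a line at 100%. E14Tg2a lies between 4.62% and 34.7% and is the lowest of the 3 lines for every gene, and *Mesp1*, *Mesp2* and *Evx1* in ΔK9.2 and *Mesp2* in ΔK9.1 (102.6%) lie above 100%. The day 8 means hold replicate 1, which has no day 6 library. Within replicate 2, not shown, *Tbx6* was at 19.1% in E14Tg2a and at 15.7% in ΔK9.1.

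On day 8, 5 of the 10 genes were higher in the mean of the clones than in E14Tg2a and none was lower, against 0.826% of all genes called as higher and 3.42% as lower. They were *T*, *Eomes*, *Mesp1*, *Mesp2* and *Msgn1*. The median log2 difference was 1.64 over the 10 genes and -0.0035 over all genes. Alone, ΔK9.1 had 1 gene called (*Mesp2*, 0.686% of all genes called as higher) and ΔK9.2 had 5 (0.955%). With the replicate block *T* (2.35, adjusted p = 0.0418) and *Eomes* (1.44, adjusted p = 0.0411) were called in ΔK9.1 too, and *Mixl1* (2.09, adjusted p = 0.0319) in ΔK9.2. The clones' own difference was not called for any of the 10, the lowest adjusted p being 0.819, nor for any of the 16336 genes. At an unadjusted p under 0.05 limma gave 1 of the 10, against 6.06% of all genes.

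*T* stood at 44.9, 1.46 and 4.09 TPM in E14Tg2a on day 8, at 78.1, 30.3 and 29.7 TPM in ΔK9.1 and at 218, 42.2 and 32.9 TPM in ΔK9.2. The highest E14Tg2a library lay above 4 of the 6 clone libraries, while all 6 lay above the E14Tg2a library of their own number. The log2 difference was 2.70 (SE 0.70, adjusted p = 0.0076), and it was 3.28 (adjusted p = 0.00050) without the day 8 replicate 1 libraries. With 1 day 8 library left out at a time it ran from 1.82 to 3.93, with a limma adjusted p of up to 0.141. *Mixl1* stood at 19.2, 1.0 and 1.13 TPM in E14Tg2a, at 21.7, 13.6 and 2.97 TPM in ΔK9.1 and at 78.2, 14.1 and 4.58 TPM in ΔK9.2. Its difference of 1.70 (SE 0.69, adjusted p = 0.0852) was not called, but was called with the replicate block (adjusted p = 0.0391) and, at 2.02 (adjusted p = 0.0141), without replicate 1. *Eomes* stood at 20.2, 1.40 and 4.73 TPM in E14Tg2a, at 16.3, 21.6 and 13.97 TPM in ΔK9.1 and at 59.6, 15.6 and 17.6 TPM in ΔK9.2, a difference of 1.72 (SE 0.47, adjusted p = 0.0110).

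Of the genes that follow in cells leaving the streak, *Mesp1* and *Msgn1* were called on day 8 and *Tbx6* was not. *Mesp1*, which marks the earliest cardiac mesoderm, stood at 19.2, 0.602 and 3.95 TPM in E14Tg2a, at 27.0, 5.23 and 9.28 TPM in ΔK9.1 and at 74.9, 19.97 and 10.4 TPM in ΔK9.2 (difference 1.72, SE 0.59, adjusted p = 0.0396). *Msgn1* stood at 4.59, 0 and 0.293 TPM in E14Tg2a, at 23.5, 2.95 and 2.00 TPM in ΔK9.1 and at 51.7, 6.73 and 2.62 TPM in ΔK9.2 (difference 2.17, SE 0.66, adjusted p = 0.0214). For both, replicate 1 of E14Tg2a overlapped replicates 2 and 3 of the clones, while 6 of 6 clone libraries lay above the E14Tg2a library of their own number.

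*Mesp2*, a somite boundary gene that is low throughout, did not overlap. It stood at 1.29, 0.108 and 0.684 TPM in E14Tg2a, at 3.30, 1.72 and 4.41 TPM in ΔK9.1 and at 5.24, 4.00 and 5.68 TPM in ΔK9.2. All 6 clone libraries lay above all 3 of E14Tg2a, and the log2 difference was 1.58 (SE 0.24, adjusted p = 7.4e-05). *Tbx6*, the T-box gene of presomitic mesoderm, was the only other of the 10 without overlap, at 1.66, 1.65 and 0.793 TPM against 1.82 to 6.70 TPM, but its difference of 0.68 (SE 0.32, adjusted p = 0.141) was not called. Of all genes 5.44% had the clones wholly above E14Tg2a on day 8 and 7.99% wholly below, as against 2 and 0 of the 10. The two-sided exact permutation p was 0.0238 for *Mesp2* and for *Tbx6*, the smallest that 3 against 6 libraries can give, and from 0.0952 to 0.238 for the other 8. This test used neither the replicate number nor the clone of a library. Within a replicate number, 6 of 6 clone libraries lay above E14Tg2a for *T*, *Mixl1*, *Mesp1*, *Mesp2*, *Tbx6* and *Msgn1*. For *Eomes*, *Gsc*, *Evx1* and *Lhx1* it was 5 of 6.

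*Gsc*, an organizer homeobox gene, *Lhx1* and *Evx1*, a homeobox gene of the posterior streak, were not called on day 8. *Gsc* was at 1.53 to 4.31 TPM in E14Tg2a and at 2.68 to 8.15 TPM in the clones (difference 0.67, SE 0.33, adjusted p = 0.157). *Lhx1* was at 1.45 to 7.49 TPM against 4.89 to 17.1 TPM (0.92, SE 0.42, adjusted p = 0.125). *Evx1* was at 10.1 to 30.7 TPM against 9.35 to 76.0 TPM (0.83, SE 0.49, adjusted p = 0.259). The groups overlapped for all 3.

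These day 8 calls lean on the spread shared with the other days and on single E14Tg2a libraries. With 1 day 8 library left out at a time, the difference ran from 0.99 to 2.56 for *Eomes* and from 0.84 to 2.66 for *Mesp1*. It ran from 1.61 to 2.93 for *Msgn1* and from 1.31 to 1.83 for *Mesp2*. Fitted on the 9 day 8 libraries alone, only *Mesp2* was called (adjusted p from 0.157 to 0.296 for the other 4). The count was 1 without E14Tg2a replicate 2 and 1 without E14Tg2a replicate 3, 3 without replicate 1 of ΔK9.1, 3 without replicate 1 of ΔK9.2 and 6 without the replicate 1 libraries of all 3 lines. In the same libraries the 14 primitive endoderm markers summed to between 590 and 796 TPM in E14Tg2a, between 65.4 and 268 TPM in ΔK9.1 and between 99.6 and 157 TPM in ΔK9.2. The 9 pluripotency genes summed to between 174 and 335 TPM in E14Tg2a, between 372 and 891 TPM in ΔK9.1 and between 431 and 1005 TPM in ΔK9.2. No gene of either list was at 0 in all libraries of a line on day 8, and the part of these cells in the differences was not tested.

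**Figure D4:**
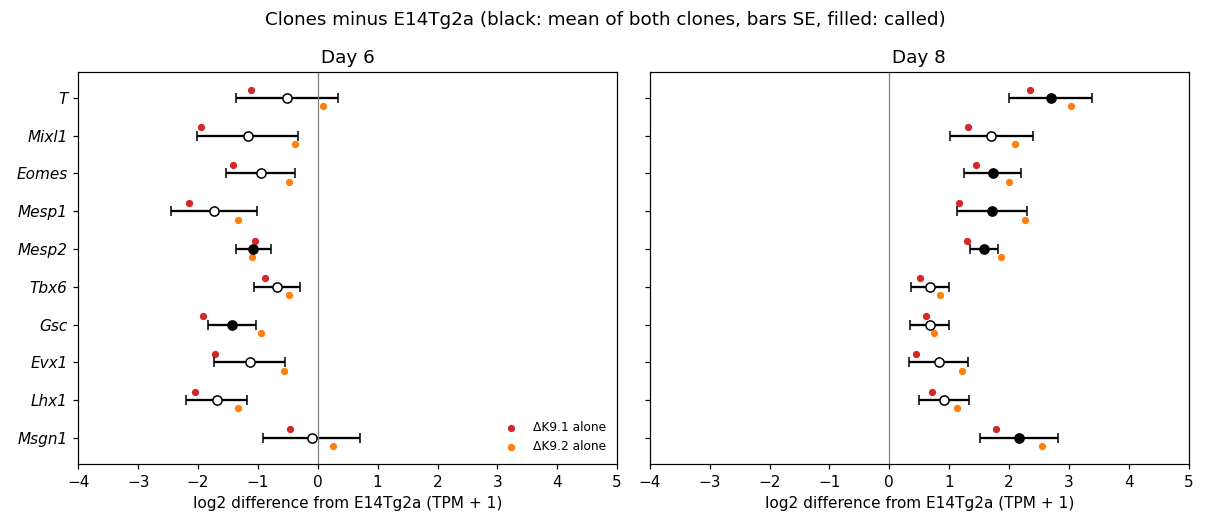
Log2 difference of each gene from E14Tg2a on days 6 and 8, on the log2(TPM + 1) scale. Black circles are the mean of both clones with the SE of the limma fit as bars (filled where called), and coloured dots are each clone alone. On day 6 the mean difference is below 0 for all 10 genes (above 0 for *T* and *Msgn1* without ΔK9.1 replicate 3, and for *Msgn1* without ΔK9.2 replicate 2) and called for *Mesp2* and *Gsc*, and on day 8 it is above 0 for all 10 and called for 5.

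On day 6 the differences pointed the other way. *Mesp2* and *Gsc* were lower in the mean of the clones than in E14Tg2a and none of the 10 was higher, against 1.37% of all genes called as lower and 0.251% as higher. *Mesp2* was at 6.70 and 5.98 TPM in E14Tg2a, at 5.07 and 1.06 TPM in ΔK9.1 and at 2.63 and 2.22 TPM in ΔK9.2 (log2 difference -1.08, SE 0.30, adjusted p = 0.0373). *Gsc* was at 26.5 and 31.1 TPM in E14Tg2a, at 16.7 and 2.47 TPM in ΔK9.1 and at 16.1 and 13.0 TPM in ΔK9.2 (-1.43, SE 0.40, adjusted p = 0.0426). *Gsc* was also called in ΔK9.1 alone (1.26% of all genes called as lower). The clone libraries lay wholly below E14Tg2a for both genes. Of the 14 primitive endoderm genes 3 were lower in the clones on this day and none higher (median -2.06), and 9 with the replicate block. They summed to 201 and 398 TPM in the E14Tg2a libraries and to between 25.5 and 72.7 TPM in those of the clones, none was at 0 in all libraries of a line, and their part in the day 6 differences was not tested.

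*Lhx1* came next, at 44.7 and 63.0 TPM in E14Tg2a, at 31.6 and 4.27 TPM in ΔK9.1 and at 22.4 and 18.9 TPM in ΔK9.2 (-1.68, SE 0.51, adjusted p = 0.0622). It was called with the replicate block, in the mean of the clones (adjusted p = 0.0244) and in ΔK9.1 alone (-2.04, adjusted p = 0.0215). *Mesp1* was at 52.9 and 51.0 TPM in E14Tg2a, at 28.1 and 3.92 TPM in ΔK9.1 and at 19.6 and 20.6 TPM in ΔK9.2 (-1.74, SE 0.72, adjusted p = 0.191). For both, as for *Mixl1* and *Eomes*, the 4 clone libraries lay below both of E14Tg2a. That makes 6 of the 10 wholly below and none wholly above, against 19.6% and 12.8% of all genes. With 2 against 4 libraries the exact permutation test cannot go below p = 0.133, which is the value for each of the 6.

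*T* and *Msgn1* stood apart from those 6. *T* was at 211 and 224 TPM in E14Tg2a, at 288 and 34.1 TPM in ΔK9.1 and at 215 and 249 TPM in ΔK9.2 (-0.52, SE 0.85, adjusted p = 0.847). *Msgn1* was at 37.6 and 32.97 TPM in E14Tg2a, at 71.0 and 8.59 TPM in ΔK9.1 and at 34.3 and 51.5 TPM in ΔK9.2 (-0.10, SE 0.81, adjusted p = 0.981). Without ΔK9.1 replicate 3 the difference was 0.24 for *T* and 0.62 for *Msgn1*, above 0. *Tbx6* was at 8.62 and 11.5 TPM in E14Tg2a and at 1.81 to 11.7 TPM in the clones, and *Evx1* at 56.3 and 46.5 TPM against 4.05 to 48.6 TPM. For *Evx1*, as for those 6, each of the 4 clone libraries lay below the E14Tg2a library of its own number.

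The median difference on day 6 was -1.11 over the 10 genes and -0.03 over all genes. The 2 calls on this day were not stable. None was left in the 6 day 6 libraries fitted alone or without any 1 library other than ΔK9.1 replicate 2, and 6 were made without that library. Without ΔK9.1 replicate 3 the difference was -0.69 for *Mesp2* (adjusted p = 0.217) and -0.84 for *Gsc* (adjusted p = 0.228).

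Before the wave, on days 0 and 4, none of the 10 genes was called between the clones and E14Tg2a by limma without the replicate block, against 0.386% and 0.796% of all genes. At an unadjusted p under 0.05 it was 0 and 2 of 10, against 17.6% and 15.5% of all genes. The 10 genes summed to 4.43 to 8.02 TPM in E14Tg2a on day 0. On day 4 the largest difference was that of *Lhx1*, at 5.61, 2.00 and 2.03 TPM in E14Tg2a, at 0.565, 0.401 and 0.0438 TPM in ΔK9.1 and at 1.26, 0.292 and 0.291 TPM in ΔK9.2 (-1.45, SE 0.42, adjusted p = 0.0572). The groups did not overlap (exact permutation p = 0.0238). It was called with the replicate block (adjusted p = 0.0206; in ΔK9.1 alone -1.57, adjusted p = 0.0280), with a pseudocount of 0.1 (-2.66, adjusted p = 0.0202) and without ΔK9.2 day 4 replicate 1 (-1.59, adjusted p = 0.0456). On the same day 11 of the 14 primitive endoderm genes were lower in the clones and none higher (median -2.77), against 0.710% of all genes called as lower. They summed to between 13.5 and 64.6 TPM in ΔK9.1 and between 40.1 and 356 TPM in ΔK9.2, against 166 to 1239 TPM in E14Tg2a. No gene of the list was at 0 in all libraries of a line on day 4, and their part in the lower *Lhx1*, *Gsc* and *Eomes* was not tested.

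*Gsc* was likewise lower in every clone library on day 4, at 0.422 to 1.18 TPM against 1.35 to 1.72 TPM, and *Mesp2* higher in every one, at 0.963 to 1.72 TPM against 0.313 to 0.587 TPM. The exact permutation p was 0.0238 for each. Of all genes 5.95% lay wholly below and 1.63% wholly above on that day, as against 2 and 1 of the 10. *Eomes* was at 12.3, 9.17 and 6.67 TPM in E14Tg2a and at 4.04 to 7.30 TPM in the clones (exact permutation p = 0.0476). All 6 clone libraries lay below the E14Tg2a library of their own number for *Mixl1*, *Eomes*, *Gsc*, *Evx1* and *Lhx1*, and above it for *Mesp2*. In the clones the day 4 levels of *Eomes* and *Lhx1* were not called against day 0, at differences of 0.71 and 0.37 for ΔK9.1 and of 0.82 and 0.46 for ΔK9.2. The difference of this change between the clones and E14Tg2a was not called either (*Lhx1*, -1.53, SE 0.59, adjusted p = 0.432).

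The change from day 6 to day 8 was then compared between the clones and E14Tg2a within the same fit. *Mesp2* was called (difference of the changes 2.66, SE 0.38, adjusted p = 0.0010, against 0.165% of all genes called as higher), and the median over the 10 genes was 2.63 against 0.01 over all genes. Those of the other 9 ran from 1.36 for *Tbx6* to 3.45 for *Mesp1* (SE 0.93, adjusted p = 0.0968). At an unadjusted p under 0.05 it was 10 of 10, against 5.2% of all genes as higher. With the replicate block *Gsc* (2.11, adjusted p = 0.0496) and *Lhx1* (2.60, adjusted p = 0.0341) were called besides *Mesp2*, 3 in all, against 0.331% of all genes called as higher. For the fits with libraries left out, the share of all genes called is not given. Without the day 8 replicate 1 libraries 7 were called, *T*, *Mixl1*, *Eomes*, *Mesp1*, *Mesp2*, *Gsc* and *Lhx1*, and 7 also with ΔK9.1 day 6 replicate 3 left out besides. It was 7 without E14Tg2a day 8 replicate 1 alone or without ΔK9.1 day 6 replicate 2 alone, 3 without day 8 replicate 2 of ΔK9.1 or of ΔK9.2, and 0 on the day 6 and day 8 libraries fitted alone. From day 0 to day 8 *Mesp2* was the 1 gene called (1.42, SE 0.34, adjusted p = 0.0144, against 0.508% of all genes called as higher). This count was 4 without E14Tg2a day 8 replicate 1 and 0 without E14Tg2a day 8 replicate 2. On day 0 *Mesp2* lay between 1.66 and 1.80 TPM in E14Tg2a and between 1.31 and 1.80 TPM in ΔK9.2. In ΔK9.1 it was at 2.88, 2.47 and 2.81 TPM, above every E14Tg2a library of that day.

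Other genes of the pathway were taken from lists, whose counts on day 8 stand against 0.826% of all genes called as higher and 3.42% as lower, and on day 6 against 0.251% and 1.37%. With the replicate block these shares were 0.888% and 3.53% on day 8 and 0.361% and 1.78% on day 6. Of 14 genes of the signals that induce the streak (NODAL, WNT, BMP and FGF ligands, their mediators and some of their targets), 5 were higher in the clones on day 8 and none lower, with a median log2 difference of 0.76. The called genes with the largest differences were *Fgf8* (2.33, SE 0.48, adjusted p = 0.0014), a growth factor needed for cells to leave the streak, *Wnt8a* (2.09, SE 0.44, adjusted p = 0.0014), *Tdgf1* (1.51, SE 0.36, adjusted p = 0.0044), the NODAL co-receptor, and *Sp5* (1.35, SE 0.41, adjusted p = 0.0198), a WNT target. *Fgf8* averaged 28.9 TPM in E14Tg2a, 92.9 TPM for ΔK9.1 and 152.7 TPM for ΔK9.2. On day 6 none of the 14 was called (median -0.32), and 1, *Bmp4* (-1.65, adjusted p = 0.0370), with the replicate block.

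Of the secreted antagonists, different members were called on the 2 days, and the difference of the change from day 6 to day 8 was called for *Lefty2* (2.11, adjusted p = 0.0109) without the replicate block and for *Cer1* (2.56, adjusted p = 0.0456) as well with it. On day 8 *Lefty1* (1.81, SE 0.26) and *Lefty2* (1.63, SE 0.25), the NODAL antagonists that NODAL itself induces, were higher in the clones, 2 of 6, and none was lower. On day 6 *Cer1* (-2.51, SE 0.46) and *Nog* (-1.48, SE 0.37) were lower and none was higher, and *Dkk1* (-1.74, adjusted p = 0.0384), a WNT antagonist, was lower as well with the replicate block. *Cer1*, a NODAL, BMP and WNT antagonist of anterior visceral and definitive endoderm, averaged 20.04 TPM in E14Tg2a on day 6 and 2.66 and 2.94 TPM in ΔK9.1 and ΔK9.2.

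Downstream, 12 genes of posterior and presomitic mesoderm were in the table, of which 4 were higher in the clones on day 8 and none lower (median 1.01). The count was 6 with the replicate block. The 4 were *Hoxb1* (1.95, SE 0.35), the Notch ligand *Dll3* (1.74, SE 0.39), *Fgf17* (1.34, SE 0.33) and the Notch modulator *Lfng* (1.16, SE 0.30). On day 6 none of them was called (median -0.71). Of 19 genes of nascent mesoderm, 2 were higher on day 8 and 1 lower (median 0.0012). *Apln* (1.56, SE 0.38) and *Tcf15* (1.02, SE 0.24) were higher, and *Snai2* (-2.004, SE 0.42), an epithelial-mesenchymal transition factor, was lower, at a mean of 44.0 TPM in E14Tg2a against 14.9 and 8.85 TPM. The count of lower genes was 3 with the block. In ΔK9.2 *Tcf15* averaged 98.3 TPM on day 0 and 11.5 TPM on day 8, and *Fgf17* 14.1 and 5.65 TPM. *Hoxb1*, *Dll3*, *Lfng* and *Apln* were higher there on day 8 than on day 0. The part of remaining ES cells in the day 8 levels of *Tcf15* and *Fgf17* was not tested. On day 6, 6 of the 19 were lower (7 with the block) and none higher (median -1.02), among them *Gata4* (-2.74, SE 0.75), which primitive endoderm also expresses.

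Of 9 genes of definitive endoderm and node, 3 were lower on day 8 (4 with the replicate block) and none higher (median -0.64). *Foxa2* (-1.93, SE 0.44) and *Foxa1* (-1.50, SE 0.23) were among them, and *Sox17* (-1.9995, SE 0.72), which lay at the threshold. *Foxa2* and *Sox17* are also in the primitive endoderm list. *Cxcr4*, a chemokine receptor of definitive endoderm and mesoderm, was the 1 gene of the list that was lower on day 6 (-2.19, SE 0.53), and *Sox17* (-2.83, adjusted p = 0.0177) was the other with the replicate block. Of the other lineages, 9 of 14 primitive endoderm genes were lower in the clones on day 8 and none higher (median -2.17), with *Ttr* (-4.81, SE 0.74), *Afp* (-4.40, SE 0.85), *Apoa1* (-3.62, SE 0.63) and *Hnf4a* (-2.94, SE 0.41) in front. All 14 were lower with the replicate block. None of the 9 trophoblast or 7 neural genes was called on day 8 without the block, while with it *Hand1* was lower (-1.19, adjusted p = 0.0307) and *Sox1* higher (1.17, adjusted p = 0.0451), and *Hand1* (-2.61, SE 0.54), which mesoderm also expresses, was the 1 trophoblast list gene that was lower on day 6.

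In the clones 5 of 9 pluripotency genes were called as higher on day 8 and none as lower (median 1.25), led by *Nanog* itself (1.79, SE 0.23), *Pou5f1* (1.52, SE 0.27), *Sox2* (1.41, SE 0.29) and *Zfp42* (1.36, SE 0.26). Of those not called, *Prdm14* was at 0.65, *Tbx3* and *Tfcp2l1* at -0.29 each and *Klf4* at -0.96. The limma adjusted p of *Klf4* was 0.0014, but it fell short of the fold limit. Of 8 genes of the formative epiblast, the state before the streak, 4 were higher and none lower (median 0.91), *Fgf5* (2.10, SE 0.57), *Pou3f1* (1.61, SE 0.41), *Zic2* (1.59, SE 0.35) and *Foxd3* (1.0009, SE 0.35). On day 6 *Foxd3* (1.51, SE 0.43) was the 1 gene of these lists that was called, and *Tbx3* (-1.69, adjusted p = 0.0174) was lower with the replicate block.

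Across the 33 libraries the 10 genes ran closely together. Pearson's r of log2(TPM + 1) over the 45 pairs was 0.546 to 0.972, with a median of 0.907. The points share their libraries, lines and days, and r is given as a description. Outside the 10, the gene nearest to *T* was *Sp8* (r = 0.981), a zinc finger factor, at 12.5 TPM in E14Tg2a on day 6 and 1.94 TPM on day 8. *Sp8* was also among the 3 nearest genes of *Mixl1*, *Eomes*, *Tbx6*, *Gsc*, *Lhx1* and *Msgn1*. *Sp5* was nearest to *Tbx6* (r = 0.927) and *Gsc* (r = 0.952), and *Apln* to *Eomes* (r = 0.957). *Evx1* ran with *Wnt3* (r = 0.992), *Wnt5b* (r = 0.989) and its antisense RNA *Evx1os* (r = 0.988), the latter at 26.2 and 20.1 TPM in E14Tg2a on day 6. *Mesp1* ran with *Alox15* (r = 0.977). *Mesp2* had the least close neighbours, *Npm3* (r = 0.823), *Orai1* (r = 0.784) and *Dll3* (r = 0.784).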

How the data were processed

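The deposited table holds TPM for 16336 genes in 33 libraries, computed by the authors with RSEM after alignment to mm10 with STAR (stranded poly-A libraries, paired-end reads), per the study's methods and the submitters' processing notes. Versions and the gene annotation are not given in the sources used here. Per the study's methods, outliers found by a PCA were omitted before TPM were computed, and what was omitted is not stated further. The table also holds 22 columns of the authors' own DESeq2 comparisons (fold changes and adjusted p-values), which were not used. TPM sum to between 994284 and 998266 per library, so they do not keep the depth (the methods give 1 approximate read number for all libraries), and the precision was taken from the replicates.

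Tests were run on log2(TPM + 1) with limma 3.58.1 (trend) in R 4.3.3, with the 12 groups as 1 factor over all 33 libraries, and checked on simulated data. p-values measure the spread between deposited replicates. The lines were differentiated in parallel in independent assays per the study's methods. No source used here says that a replicate number marks an assay, but deviations from the group means correlated at a median r of 0.241 over 33 pairs of same-day libraries with the same number (31 above 0.1, and 0.00083 for both pairs of the clones on day 6) and of -0.142 over 60 with different numbers. The mean r of each of the 33 libraries with the other lines was highest for its own number, so a fit with the number as a block is given where it changes a call on one of the 10 genes or a count given for a list. For single genes two-sided exact permutation tests were added. Figures were drawn with Python 3.11.15 and matplotlib 3.10.9.

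The members and lists (10 lists, 113 genes, 107 of them in the table) were chosen with earlier results of these data known. All 10 members are named, and from each list at most the 4 called genes with the largest difference on day 8, then on day 6. The 3 genes nearest to each member were taken from genes with a highest group mean of at least 5 TPM. The libraries that stood apart were named after the values were seen. Counts with libraries left out, or within a replicate number, have no share of all genes beside them. The alternatives tried used a pseudocount of 0.1, only genes reaching 5 TPM, rescaling by the median ratio, a replicate block, libraries of the same day or line only, no limit on the fold and each library left out.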

Additional observations from a re-analysis of the deposited data

Results flagged for a closer look

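The change of *Mesp2* between days differed between the clones and E14Tg2a by a test of the difference itself (limma). From day 6 to day 8 the change in the clones minus that in E14Tg2a was 2.66 on the log2(TPM + 1) scale (SE 0.38, adjusted p = 0.0010), with group means of 6.34 and 0.693 TPM in E14Tg2a, 3.06 and 3.14 TPM in ΔK9.1 and 2.43 and 4.97 TPM in ΔK9.2. From day 0 to day 8 it was 1.42 (SE 0.34, adjusted p = 0.0144), with day 0 means of 1.73, 2.72 and 1.51 TPM in E14Tg2a, ΔK9.1 and ΔK9.2. All 6 clone libraries lay above all 3 E14Tg2a libraries on day 8. The first was not called on the day 6 and day 8 libraries fitted alone (adjusted p = 0.209).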

How the results depend on the processing

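No alternative reversed a called difference. For 10 genes in 12 groups, 58 of 2556 alternatives of single differences changed the sign of a value that was not called, 54 lost a call and 79 gained one. In the mean of the clones against E14Tg2a, a pseudocount of 0.1 gave 1 called gene on day 4 (0 in the report) and 0 on day 6 (2), and the fit on the same day only gave 0 on day 6 and 1 on day 8 (5). Between days, the fit on E14Tg2a alone gave 1 from day 0 to day 4 (2), and a pseudocount of 0.1 gave 0 in ΔK9.2 from day 6 to day 8 (1). For the difference of the changes from day 6 to day 8 (1), the fit on these days alone gave 0. With the day 8 replicate 1 libraries left out, chosen after seeing the data, the counts were 3 in E14Tg2a from day 0 to day 8 (6), 1 in ΔK9.1 (0) and 7 in ΔK9.2 (1) from day 6 to day 8, and 7 and 4 for the differences of the changes from day 6 and from day 0 to day 8 (1 and 1). With ΔK9.1 day 6 replicate 3 left out as well, they were 9 in ΔK9.1 from day 6 to day 8 and 7 for the difference. The cause was not tested. The minimum of 5 TPM, the rescaling and no limit on the fold moved none of these counts by more than 1.5 times.

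With each library left out in turn, the counts for the clones against E14Tg2a ranged from 0 to 0 on day 0, 0 to 1 on day 4, 0 to 6 on day 6 and 1 to 7 on day 8. In E14Tg2a they ranged from 1 to 2 (day 0 to 4), 10 to 10 (day 0 to 6), 2 to 7 (day 0 to 8), 10 to 10 (day 4 to 6) and 9 to 10 (day 6 to 8). In ΔK9.1 the ranges over the same steps were 0 to 0, 5 to 9, 7 to 8, 0 to 10 and 0 to 3, and in ΔK9.2 0 to 0, 9 to 9, 9 to 10, 9 to 9 and 0 to 7. For the differences of the changes they were 0 to 0 (day 0 to 4), 0 to 1 (day 4 to 6), 1 to 7 (day 6 to 8) and 0 to 4 (day 0 to 8).

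With the replicate block, 1 gene was called on day 4 (*Lhx1*, adjusted p = 0.0206), 3 on day 6 (2 in the report) and 6 on day 8 (5), 1 in ΔK9.1 (0) and 3 in ΔK9.2 (1) from day 6 to day 8, and 3 for the difference of that change (1). In E14Tg2a it gave 7 from day 0 to day 8 (6) and 10 from day 6 to day 8 (9), and the counts over the other steps and differences between days, and on day 0, did not move. With the block, the shares of all genes called in the same direction were 0.869% on day 4, 1.78% on day 6 and 0.888% on day 8. From day 6 to day 8 they were 1.96% in ΔK9.1, 1.80% in ΔK9.2, 3.24% in E14Tg2a and 0.331% for the difference. From day 0 to day 8 in E14Tg2a the share was 15.9%. On day 8, 6 of 6 clone libraries lay above the E14Tg2a library of their number for *T*, *Mixl1*, *Mesp1*, *Mesp2*, *Tbx6* and *Msgn1*, and 5 of 6 for the other 4 genes. Rescaling moved the median of all genes by over 0.1 in 4 comparisons, from -0.214 to -0.00 in ΔK9.1 and from -0.156 to -0.00 in ΔK9.2 from day 0 to day 4, from 0.115 to 0.00 in ΔK9.1 from day 4 to day 6, and from -0.125 to 0.00 for the difference of the changes from day 0 to day 4.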
